A study of Arabidopsis thaliana with 6 samples.

Results

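The plasma membrane intrinsic proteins (PIPs) are the aquaporins of the plant cell surface, and transcripts of 10 PIP genes were followed here in whole 1-day-old Arabidopsis seedlings. The genes were chosen by locus from 33602 loci in the count files: PIP1;1 to PIP1;5, PIP2;1 to PIP2;4, and PIP2;7. PIP2;5, PIP2;6 and PIP2;8, the 3 PIP genes outside that choice, are given for comparison. RNA came from 3 libraries of wild-type Col-0 and 3 of vil1-1, a line mutated in VIL1, which encodes a PHD finger protein that acts with Polycomb repressive complex 2. Seeds of both genotypes had been stratified in the dark for 3 days at 4 °C, and the seedlings grew at 22 °C under 16 h of light and 8 h of darkness. No other allele or agent is given for either genotype. The series design calls the libraries of a genotype biological replicates, but the sources used here do not say how the seedlings were pooled. The p-values computed here from the counts rest on the spread between these libraries, estimated largely across genes together rather than gene by gene. The authors also deposited a comparison of the genotypes, whose p-values come without that spread. How far those deposited p-values reflect the spread between libraries is not known here.

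PIPs are tetramers whose monomers each form a water pore, and they set how easily water crosses the plasma membrane as a seed takes up water and its axis elongates. PIP2 proteins move water readily when expressed alone in frog oocytes. Most PIP1 proteins do so poorly on their own there, and reach the plasma membrane in mixed tetramers with PIP2 partners. In bulk seedlings, fewer cells that express a gene and less RNA per cell cannot be told apart.

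The reference also lists each gene under a letter name, which is used from here on. The PIP1 genes are PIP1A (PIP1;1, AT3G61430), PIP1B (PIP1;2, AT2G45960), PIP1C (PIP1;3, AT1G01620), PIP1E (PIP1;4, AT4G00430) and PIP1D (PIP1;5, AT4G23400). The PIP2 genes are PIP2A (PIP2;1, AT3G53420), PIP2B (PIP2;2, AT2G37170), PIP2C (PIP2;3, AT2G37180, also called RD28), PIP2F (PIP2;4, AT5G60660) and PIP3A (PIP2;7, AT4G35100). PIP3A belongs to the PIP2 subgroup in spite of its letter name. The comparison genes are PIP2D (PIP2;5), PIP2E (PIP2;6) and PIP3B (PIP2;8).

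All 10 genes had 4 exons in the reference annotation of the TAIR10.1 assembly, and no other annotated gene overlapped any of them. Their coding sequences were alike within a subgroup and less so across the subgroups. Within PIP1, the 10 pairs of members were 79.5% to 87.6% identical, and within PIP2 the 10 pairs were 70.6% to 94.8% identical. The 25 pairs of a PIP1 with a PIP2 member lay between 63.4% and 68.7%. PIP2B (chromosome 2, 15613368 to 15615022, minus strand) and PIP2C (chromosome 2, 15617635 to 15619155, plus strand) are neighbours on chromosome 2 and were the most alike pair, with 45 differences over 858 coding bases. The stretch from coding base 388 to 537, printed with capitals at the bases that differ, holds 17 of these differences. No other coding stretch of 150 bases holds more, and sequence outside the coding part was not searched in this way.
PIP2B: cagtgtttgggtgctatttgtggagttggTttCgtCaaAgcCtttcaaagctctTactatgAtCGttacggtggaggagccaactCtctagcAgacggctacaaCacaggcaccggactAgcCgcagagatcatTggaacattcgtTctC
PIP2C: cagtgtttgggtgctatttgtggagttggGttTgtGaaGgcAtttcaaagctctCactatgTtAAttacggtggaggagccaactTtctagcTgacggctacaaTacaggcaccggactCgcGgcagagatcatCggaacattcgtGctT
Bases 175 to 416 of the coding sequences hold an identical run of 242 bases. Of all 50-base windows of the longest transcript, 19.6% in PIP2B and 21.7% in PIP2C occurred letter for letter in the other copy. No such window of the other 8 members occurred in the longest transcript of another gene. The sources used here do not state how reads that fit several places were treated, so counts of PIP2B and PIP2C are uncertain at the level of the single gene.

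The libraries held 46917 to 66546 counts each. Values in CPM, counts scaled to a library of 1000000, were adjusted by the trimmed mean of M values (TMM), so that 1 count was worth 15.1 to 21.6 CPM. A count of 0 allowed up to 45.2 to 64.7 CPM, taken as 3 counts. Such limits cover counting error only. Counts at near-silent genes, those under 1 CPM in the authors' deposited table, numbered 65 in Col-0 replicate 2 and 49 in Col-0 replicate 3, and 13 to 22 in the other 4 libraries. VIL1 had 0 counts in all 6 libraries, so these counts could not check the genotype. The authors' deposited table gives VIL1 14.2 CPM and a log2 fold change of -0.91 in vil1-1. That table holds 25005 genes, whereas 14869 genes had any count in the 6 count files. It therefore does not rest on these counts alone, and what further reads it rests on is not known here. Of the tissue markers, all 3 green tissue genes were detected, at summed levels of 2879 to 3124 CPM for wild type and 3218 to 3470 CPM for the mutant. The 3 seed coat genes, TT10, BAN and TT12, had 0 counts in all 6 libraries, and the 3 root hair genes had 1 count in Col-0 and 1 in vil1-1.

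PIP transcripts were carried by a few genes. The 10 members held 446 of the 339529 counts, and 4 of them, PIP3A, PIP1B, PIP2A and PIP1C, held all but 20 of these. Levels between genes are compared as CPM per kilobase of the longest transcript. PIP3A led in both genotypes, at 352 ± 52.4 CPM per kilobase in Col-0 and 419 ± 15.7 in vil1-1 (SD, n = 3 each, as for every ± value that follows). PIP1B came next at 212 ± 27.5 CPM per kilobase in Col-0 and 175 ± 40.9 in vil1-1. PIP2A stood at 153 ± 19.9 CPM per kilobase in Col-0 and 90.3 ± 28.9 in vil1-1, and PIP1C at 114 ± 33.1 and 82.0 ± 27.7. Within each genotype the library ranges of PIP3A and PIP1B did not overlap, nor did those of PIP1B and PIP2A, whereas those of PIP2A and PIP1C did. Below them PIP1D, at 21.7 ± 9.8 CPM per kilobase in Col-0, was separate from PIP1C, and from PIP1D downward every neighbouring range overlapped. Leaving transcript length out changed no place in the order of the members' levels averaged over the genotypes.

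In the authors' deposited table the same 4 genes led in the same order, at 247 CPM per kilobase for PIP3A, 201 for PIP1B, 103 for PIP2A and 53.7 for PIP1C. PIP1E followed at 25.4 CPM per kilobase, then PIP2B at 14.3, PIP1A at 13.7 and PIP1D at 7.6. PIP2C at 3.29 and PIP2F at 1.49 CPM per kilobase came last. By CPM in the authors' deposited table, PIP3A ranked 366 and PIP1B 483 among 25005 genes.

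**Figure D1:**
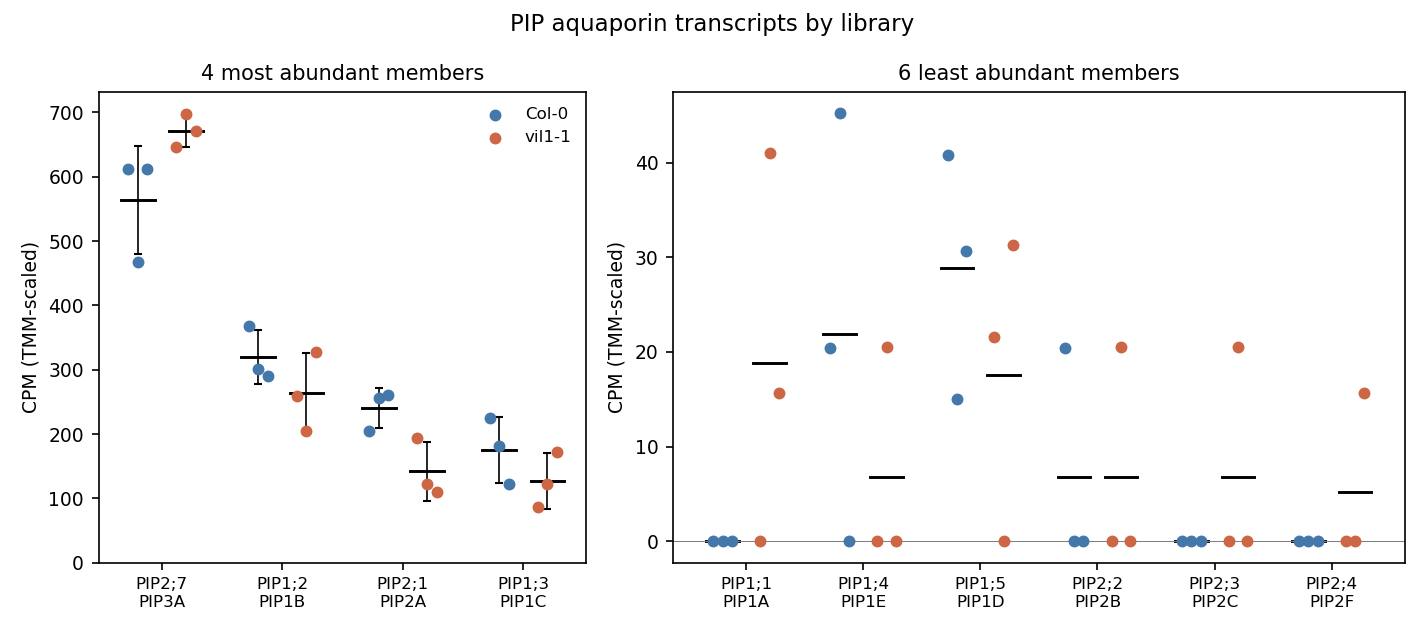
TMM-scaled CPM of each member in each library, with Col-0 in blue and vil1-1 in orange. Bars mark group means, and error bars in the left panel are the SD over 3 libraries. PIP2A (PIP2;1) lies lower and PIP3A (PIP2;7) higher in all 3 vil1-1 libraries than in any Col-0 library, while most points of the 6 least abundant members rest on 0 to 2 counts.

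PIP2A was the member with the clearest difference between genotypes. PIP2A encodes a well-studied water channel of root and guard cells. In Col-0 it had 10, 17 and 17 counts in replicates 1, 2 and 3, or 204, 256 and 260.3 CPM. In vil1-1 it had 9, 6 and 7 counts, or 194, 123 and 109 CPM. All 3 vil1-1 libraries were below the lowest Col-0 library, though Col-0 replicate 1 and vil1-1 replicate 1 were close to each other. The Col-0 mean was 240.2 ± 31.3 CPM and the vil1-1 mean 142 ± 45.4 CPM, and the fitted log2 fold change was -0.80 (SE 0.39, 95% interval -1.57 to -0.03). This did not pass after adjustment over all 942 genes tested (edgeR adjusted p = 0.371, unadjusted p = 0.0421). The unadjusted p was 0.122 in DESeq2, and it was 0.110 to 0.202 in edgeR without Col-0 replicate 2, Col-0 replicate 3, vil1-1 replicate 2 or vil1-1 replicate 3. Ranges that were separate and lower in vil1-1 were found for 79 of the 942 genes, or 8.39%, and an unadjusted p under 0.05 for 118, or 12.5%. In the authors' deposited table PIP2A was called lower, with a log2 fold change of -0.47, or 1.39-fold, at 163 CPM (adjusted p = 3.98e-06).

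PIP1B, the most abundant PIP1 gene, was the second member called in the authors' deposited table. It is lower there in vil1-1 by a log2 fold change of -0.30, or 1.23-fold, at 303 CPM (adjusted p = 0.00389 in the authors' deposited table). PIP1B encodes a channel that has been linked to water and carbon dioxide passage in leaves. In the count files it had 18, 20 and 19 counts in Col-0, or 367, 301 and 291 CPM, and 12, 10 and 21 counts in vil1-1, or 259, 205 and 328 CPM. The vil1-1 libraries 1 and 2 were below every Col-0 library and vil1-1 replicate 3 was not. The log2 fold change from the counts was -0.23 (SE 0.32, 95% interval -0.86 to 0.40, edgeR adjusted p = 0.823), an interval that holds the deposited value and 0.

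PIP3A, the most abundant member, went opposite ways in the 2 sources and was called in neither. Its protein is a water channel that is bound by the stress-induced protein TSPO and removed with it. It had 30, 31 and 40 counts in Col-0, or 612, 467 and 612 CPM, and 30, 34 and 43 counts in vil1-1, or 647, 697 and 672 CPM. All 3 vil1-1 libraries stood above the Col-0 libraries, a separation in this direction that 82 of the 942 genes, or 8.7%, also showed. The Col-0 mean was 564 ± 84.1 CPM and the vil1-1 mean 672 ± 25.1 CPM, a log2 fold change of 0.26 (SE 0.22, 95% interval -0.18 to 0.71, edgeR adjusted p = 0.705). The authors' deposited table gives -0.19 (adjusted p = 0.12), just below the lower end of that interval.

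PIP1C did not pass the default filter on low counts. With no filter edgeR gave it -0.41 on the log2 scale (SE 0.44, adjusted p = 0.772) and did not call it. Its 11, 12 and 8 counts in Col-0 gave 225, 181 and 122 CPM, and its 4, 6 and 11 counts in vil1-1 gave 86.2, 123 and 172 CPM. These ranges overlapped, with means of 176 ± 51.2 and 127 ± 43.0 CPM. The authors' deposited table has PIP1C at -0.12 (adjusted p = 0.62).

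The other 6 members held 20 counts in all, 10 in Col-0 and 10 in vil1-1, and no member of this group had more than 3 counts in a library. The Col-0 libraries gave PIP1D 2, 1 and 2 counts, and the vil1-1 libraries 1, 0 and 2. For PIP1E the Col-0 libraries gave 1, 3 and 0, and the vil1-1 libraries 0, 1 and 0. PIP1A was at 0 in all Col-0 libraries and had 0, 2 and 1 counts in vil1-1. PIP2B, PIP2C and PIP2F had 2, 1 and 1 counts over all 6 libraries. None passed the default filter. With no filter edgeR called 0 of the 6, and 0 had an unadjusted p under 0.05. Their standard errors were 1.13 to 2.19 on the log2 scale, so even large differences in them could go undetected at this depth. PIP1A, for example, had a log2 fold change of 3.24 (SE 1.92) in that fit and was not called. PIP2F and PIP2B are known chiefly from roots, and PIP2C was first described as a gene that responds to drying.

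Over the family, the authors' deposited table had 2 of 10 members lower, PIP2A and PIP1B, and none higher at an adjusted p under 0.05. Across its 25005 genes, 895, or 3.58%, were called lower and 889, or 3.56%, higher. Calls were more frequent at high levels: among the 1596 genes at 100 CPM or more in the authors' deposited table, 159, or 9.96%, were called lower, and the 3 members at that level were PIP3A, PIP1B and PIP2A. Of the 10 members, 7 had a negative and 3 a positive log2 fold change, beside 13787 negative and 11218 positive over all 25005 genes. The members' median was -0.14 beside -0.05 for all 25005 genes in the authors' deposited table. The 3 members with a positive value in the authors' deposited table were PIP1D (0.05, adjusted p = 0.938), PIP2C (0.52, adjusted p = 0.555) and PIP2F (0.07, adjusted p = 0.975), none of them called. PIP1A (-0.39, adjusted p = 0.173), PIP1E (-0.15, adjusted p = 0.597) and PIP2B (-0.11, adjusted p = 0.782) were not called in the authors' deposited table either.

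In the count files 3 members, PIP1B, PIP2A and PIP3A, passed the filter and edgeR's quasi-likelihood test called 0 of them at an adjusted p under 0.05, against 35 of all 942 genes, or 3.72%. At an unadjusted p under 0.05 it gave 1, PIP2A, and DESeq2 and limma-voom also called 0 of the members. The median log2 fold change of these 3 was -0.23, beside -0.02 over the 942 genes.

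**Figure D2:**
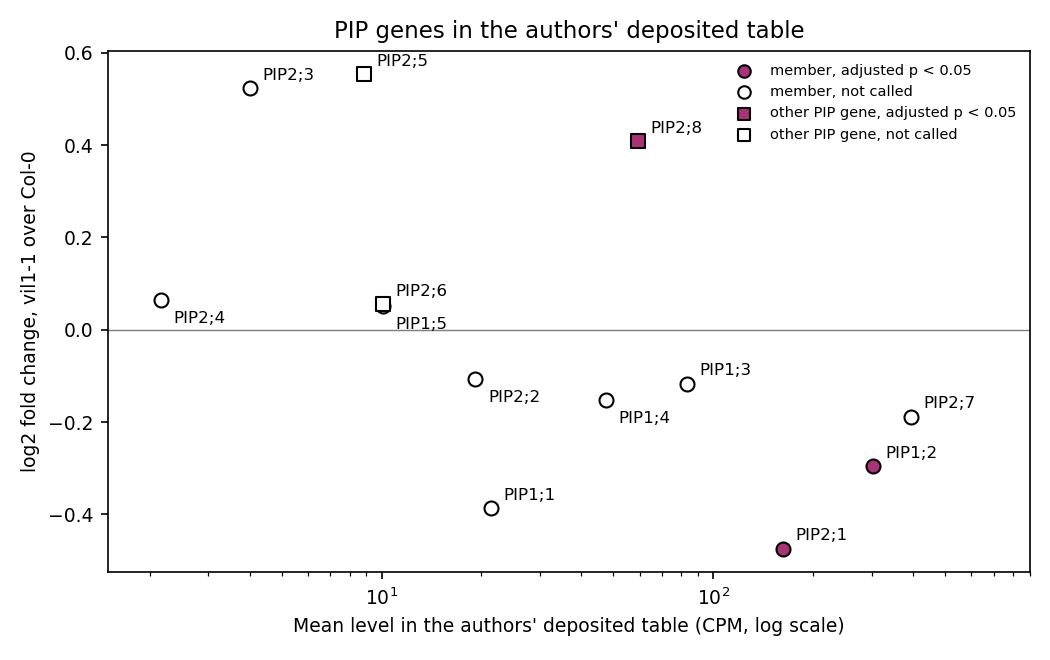
Log2 fold change (positive where vil1-1 is higher) against mean CPM (log scale) for 13 PIP genes in the authors' deposited table. Circles are the 10 members, squares the 3 other PIP genes, and filled symbols have an adjusted p under 0.05. PIP2A (PIP2;1) and PIP1B (PIP1;2) are filled below 0, and PIP3B (PIP2;8) is filled above 0.

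The comparison genes outside the member list all had positive log2 fold changes in the authors' deposited table. PIP3B, the closest relative of PIP3A at 84.0% coding identity, was called higher at 0.41, or 1.33-fold, at 59.4 CPM (adjusted p = 0.00721 in the authors' deposited table). PIP2D had 0.55 (adjusted p = 0.206) and PIP2E 0.06 (adjusted p = 0.93) there. Counts of PIP3B were 2, 3 and 3 for Col-0 against 2, 5 and 4 for vil1-1, and it did not pass the filter. Set beside each other in the authors' deposited table, PIP2A at -0.47 and PIP1B at -0.30 were called lower and PIP3B at 0.41 higher. Whether the fold changes of 2 genes differ from each other was not tested.

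Summed by subgroup, the 5 PIP1 members came to 653, 542 and 444 CPM in Col-0 and 366, 389 and 547 CPM in vil1-1. These ranges overlapped, with means of 547 ± 104.7 and 434 ± 98.2 CPM. The 5 PIP2 members came to 837, 723 and 873 CPM in Col-0 and 841, 861 and 797 CPM in vil1-1, with means of 811 ± 78.3 and 833 ± 32.7 CPM. The 10 members together summed to 1357 ± 118 CPM for Col-0 and 1267 ± 69.9 CPM for vil1-1, a log2 ratio of -0.10. This ratio was -0.03 without Col-0 replicate 1 and -0.15 to -0.07 with any other single library left out. No test was made on sums over chosen members.

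Of the members' counts, PIP3A took 41.1%, 36.9% and 46.5% in Col-0 and 53.6%, 55.7% and 50% in vil1-1. Every vil1-1 library was above every Col-0 library in this share. Pooled over libraries it was 101 of the 243 Col-0 counts, 41.6% with an exact Clopper-Pearson 95% interval of 35.3% to 48.0%, and 107 of the 203 vil1-1 counts, 52.7% with an interval of 45.6% to 59.7%. These intervals cover counting error only, not the spread between libraries, and the difference in shares was not tested. PIP2A took 13.7%, 20.2% and 19.8% in Col-0 and 16.1%, 9.84% and 8.14% in vil1-1, so its shares overlapped. The shares of PIP1B, 22.1% to 24.7% in Col-0 and 16.4% to 24.4% in vil1-1, overlapped too. Shares of a whole depend on one another, so a higher share of PIP3A and lower shares of others are the same observation. In the authors' deposited table, which gives 1 mean level over both genotypes, PIP3A made up 37.7%, PIP1B 28.9%, PIP2A 15.5% and PIP1C 7.93% of the members' summed CPM.

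**Figure D3:**
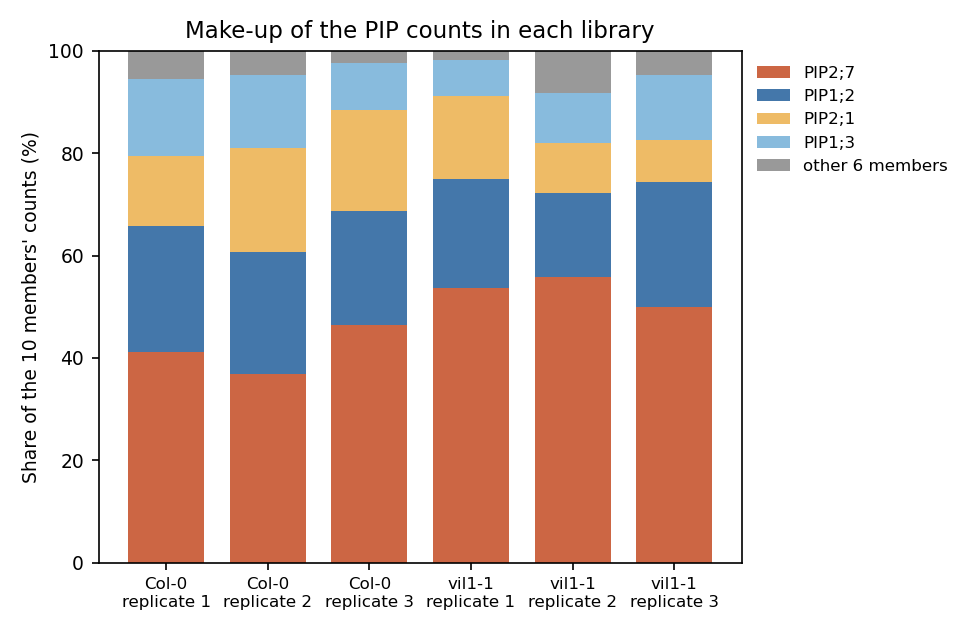
Share of the 10 members' counts (percent) taken by each of the 4 most abundant members and by the other 6 together, as stacked bars for each library. PIP3A (PIP2;7) takes 36.9% to 46.5% in the Col-0 libraries and 50% to 55.7% in the vil1-1 libraries.

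The count files and the authors' deposited table did not weigh the members alike. At the CPM of the authors' deposited table, libraries with these totals would hold 134 counts of PIP3A, and 208 were found (exact Poisson 95% interval 181 to 238). For PIP1C 28.2 would be held and 52 were found (interval 38.8 to 68.2). PIP1E went the other way, with 16.1 set by the table and 5 found (interval 1.62 to 11.7). PIP1B, with 103 set and 100 found, and PIP2A, with 55.2 set and 66 found, lay within their intervals. PIP1A (7.24 set, 3 found) and PIP2B (6.51 set, 2 found) were also within theirs, as were PIP2C and PIP2F. PIP1D, with 3.43 set and 8 found, was just outside (interval 3.45 to 15.8). These intervals cover counting error only. PIP3A, PIP1C, PIP1E and PIP1D share no 50-base window with another gene, and the cause of the difference between the sources was not tested. Listed genes outside the family differed as well. RMA1 stood at 51.1 CPM in the deposited table, whereas its counts gave means of 605.7 (wild type) and 592.9 (mutant). EPR1 went the other way, with 295.9 CPM deposited and count means of 97.9 and 85.9. How many of all genes lie outside such intervals was not computed, so the mismatch is not shown to be particular to PIP genes.

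**Figure D4:**
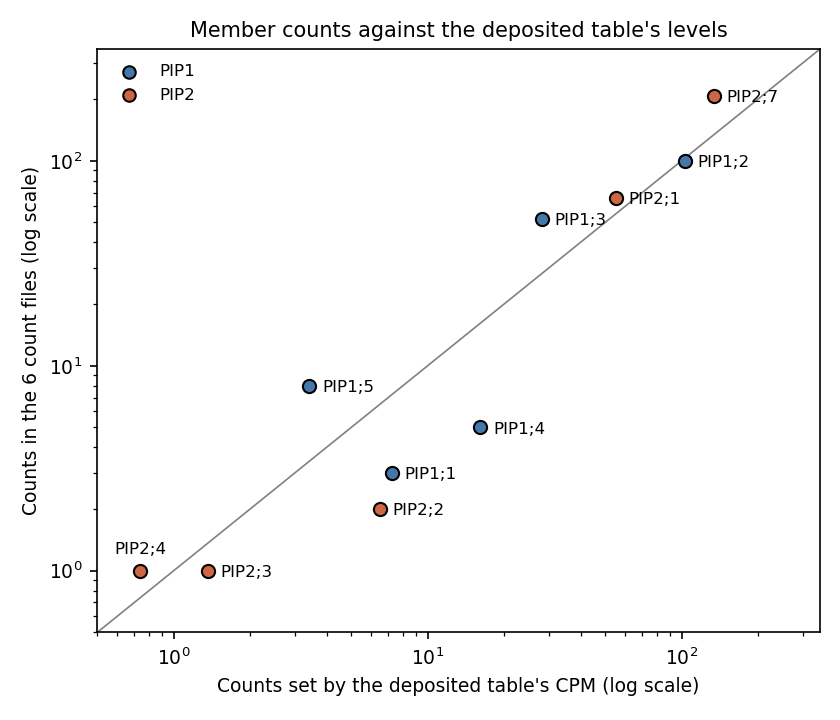
Counts of each member over the 6 count files against the counts that its CPM in the authors' deposited table would give in libraries of these sizes, on log scales, with PIP1 in blue and PIP2 in orange. The line marks equality. PIP3A (PIP2;7) and PIP1C (PIP1;3) lie above it at 208 and 52 counts, and PIP1E (PIP1;4) below it at 5.

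The regions before the gene starts of the 3 members tested in the counts are printed because they precede PIP2A and PIP1B, which were called lower in the authors' deposited table, and PIP3A, which was not. Each is the 250 bases before the annotated start in TAIR10.1, 5′ to 3′ on the gene's strand, from the RefSeq genome, with capitals at matches to any of 5 motifs. The motifs were ACGTG, the core bound by bZIP factors of abscisic acid signalling, and CACGTG, the G-box, which contains it. CATGCA, the RY core bound by B3 factors such as ABI3 and the VAL repressors, was also searched. AAACCCTA, the telo-box, and GAGAGA are linked in Arabidopsis to recruitment of Polycomb repressive complex 2. Both strands were searched.
PIP2A, chr3:19805731-19805980, minus strand: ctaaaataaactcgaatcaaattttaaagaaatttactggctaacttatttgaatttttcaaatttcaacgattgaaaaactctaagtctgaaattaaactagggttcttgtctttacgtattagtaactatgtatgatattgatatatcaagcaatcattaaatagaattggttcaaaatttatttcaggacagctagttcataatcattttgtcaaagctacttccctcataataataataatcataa
PIP1B, chr2:18909831-18910080, plus strand: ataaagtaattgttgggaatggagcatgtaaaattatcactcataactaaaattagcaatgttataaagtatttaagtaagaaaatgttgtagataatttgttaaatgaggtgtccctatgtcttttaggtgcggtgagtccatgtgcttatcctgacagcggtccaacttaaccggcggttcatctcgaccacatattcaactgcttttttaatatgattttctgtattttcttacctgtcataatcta
PIP3A, chr4:16708111-16708360, plus strand: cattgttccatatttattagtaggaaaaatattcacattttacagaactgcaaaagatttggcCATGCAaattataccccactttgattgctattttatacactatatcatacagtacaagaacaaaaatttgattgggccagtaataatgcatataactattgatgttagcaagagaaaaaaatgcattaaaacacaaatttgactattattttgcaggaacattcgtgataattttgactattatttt
PIP2A and PIP1B held none of the 5 motifs in this window, and PIP3A held CATGCA with its first base 187 bases before the start. CATGCA was in the windows of 4 of the 10 members, PIP3A, PIP1A, PIP1D and PIP2F, and in 8.43% of the 27443 windows of protein-coding genes. None of these 4 was called in either source, but PIP1A, PIP1D and PIP2F did not pass the filter on the counts. Most genes were uncalled in the deposited table too, 23221 of 25005. The comparison gene PIP3B also held CATGCA, as well as GAGAGA, and it was called higher there. Whether the motif goes with the presence or absence of a call was not tested. GAGAGA was in 1 member, PIP1A, and in 20.6% of all windows. No member held the bZIP core, the G-box or the telo-box, which were in 22.9%, 6.49% and 4.49% of all windows. A match in these letters is a description of the sequence and shows no binding.

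Other aquaporins and genes that act on PIP proteins were described from lists. Among 10 tonoplast intrinsic proteins (TIPs), the water channels of the vacuole membrane, 3 were lower and none higher in the authors' deposited table. They were TIP1;1 (-0.92 at 114 CPM, adjusted p = 3.15e-19), TIP1;2 (-0.76, adjusted p = 2.52e-14) and TIP4;1 (-0.81, adjusted p = 0.000758), all in the authors' deposited table. Over all its 25005 genes, 3.58% were called lower and 3.56% higher. Among its genes at 100 CPM or more, where TIP1;1 and TIP1;2 lay, 9.96% were called lower. Counts of TIP1;1 were 9, 7 and 7 for Col-0 against 4, 1 and 1 for vil1-1, and those ranges were separate. TIP1;2 had 4, 5 and 8 counts for Col-0 against 5, 3 and 4 for vil1-1, which overlapped. TIP4;1 had 0, 0 and 1 against 1, 1 and 0, which did not show the decrease. None of these 3 passed the filter, and 8.39% of the genes that did had separate ranges lower in vil1-1. Of 7 nodulin 26-like intrinsic proteins (NIPs) listed in the authors' deposited table, NIP1;2 was called higher at 0.33 (adjusted p = 0.0495), beside 3.56% of all its genes. In the count files NIP1;2 had 7 counts for Col-0 against 2 for vil1-1. None of the 3 small basic intrinsic proteins (SIPs) was called, SIP1;1 having -0.22 (adjusted p = 0.216) in the authors' deposited table. In the count files 1 gene each of the TIPs, NIPs and SIPs was tested (TIP2;1, NIP1;1 and SIP1;1) and edgeR called 0 of them, 0 also at an unadjusted p under 0.05 and 0 by DESeq2 or limma-voom.

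Of 10 genes for trafficking and modification of PIP proteins, only TSPO passed in the authors' deposited table, where it was higher at 1.77, or 3.42-fold, at 11.5 CPM (adjusted p = 5.43e-12). Across all 25005 genes there, 3.56% were called higher. TSPO encodes a membrane protein induced by abscisic acid that carries PIP3A to degradation. It had 0 counts in every Col-0 library and 1, 2 and 0 in vil1-1. The other 9, among them the syntaxin genes SYP121, SYP61 and SYP71 and the kinase gene OST1, were not called there, and the 2 tested in the count files, VAMP721 and RMA1, were not called by edgeR.

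Some tissue markers differed between the genotypes. Over all genes, 3.58% were called lower and 3.56% higher in the authors' deposited table. In the count files edgeR called 3.72% of the genes tested. In the authors' deposited table EXPA2, an expansin gene of the germinating endosperm, had 1.07 and the late embryo gene LEA4-5 had 2.74, both called higher. In the count files edgeR also called EXPA2 (1.39, adjusted p = 0.000227) and LEA4-5 (3.09, adjusted p = 6.83e-05) higher. EPR1, TIP3;1 and TIP3;2 did not pass the filter on the counts. The other endosperm marker, EPR1 (0.14, adjusted p = 0.384), and the other embryo maturation markers, TIP3;1 (0.23, adjusted p = 0.737) and TIP3;2 (-0.65, adjusted p = 0.682), were not called in the authors' deposited table. The root hair genes COBL9 (-1.27 at 8.29 CPM) and EXPA18 (-1.79 at 2.74 CPM) were called lower there, and EXPA7 (-0.67, adjusted p = 0.22) was not called. In the count files COBL9 had 1 count, in Col-0, and EXPA18 had 1, in vil1-1, so they could not show a direction. None of the 3 green tissue genes was called in the authors' deposited table, RBCS1A having 0.12. Summed over the 2 endosperm markers, the counts gave 245 to 452 CPM for Col-0 and 668 to 758 CPM for vil1-1. EXPA2 alone went from 236 ± 76.7 to 639.6 ± 39.6 CPM, whereas EPR1 had 97.9 ± 32.7 CPM in wild type and 85.9 ± 82.3 CPM in the mutant. The 3 embryo maturation markers gave 20.4 to 45.9 CPM for Col-0 and 216 to 307 CPM for vil1-1, of which TIP3;1 had 1 count and the beta-TIP gene TIP3;2 had 0. TIP3;1 and TIP3;2 are also in the TIP list. The part of these tissues in the PIP values was not tested.

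The genes whose library profile was most like that of PIP3A were sought among the 941 other tested genes, by the root mean square difference of log2(CPM + 1) over the 6 libraries after centring. TUA1, an alpha-tubulin gene, was the nearest at 0.08, followed by RBP47B, an RNA-binding protein gene, at 0.10 and MEE5 at 0.11, beside a median of 0.38 over all 941. TUA1 had 265, 241 and 276 CPM for Col-0 against 302, 328 and 328 CPM for vil1-1. With 6 libraries and this depth, such likeness is a description of these libraries.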

How the data were processed

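RNA-seq of 6 libraries was analysed. The submitters' processing notes name Bowtie2, featureCounts, edgeR and, as build, TAIR10, without versions or order. The authors deposited whole-number counts per gene, with no normalization. Their deposited table gives, per the file headers, per gene the log2 fold change with its p-value, the F statistic (a score) and the mean log2 CPM. Its p-values were adjusted here over its 25005 genes (Benjamini-Hochberg), and its CPM is 2 to the power of the mean log2 CPM. The sources used here do not state the library kit, strand setting or read length.

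Counts of all genes were tested with edgeR 4.0.16 (R 4.3.3): default filter on low counts, TMM, genotype as the only term, quasi-likelihood F test, Benjamini-Hochberg adjusted p under 0.05. SE is the absolute log2 fold change over the square root of F. CPM uses TMM-scaled totals. Lengths, coordinates and sequences come from the RefSeq annotation of TAIR10.1. The fit was tested on 5 sets of counts made from these libraries' means with 1 common dispersion (on average 929 genes passed the filter). In each set 200 genes were changed, whereas 35 of 942 were called in these data. More changed genes make the adjusted threshold easier to pass. Of 2-fold changes 70.0% were called and of 4-fold changes 86.6%, with 4.72% false calls, rates that may be too favourable for real counts. They are averages over changed genes and not rates for the PIP genes. Alternatives were DESeq2 1.42.0, limma-voom (limma 3.58.1), RLE, no TMM, other filters, a replicate block and libraries left out.

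The members, lists and tests were chosen with earlier results of these data known. The rule for named genes was all members, the other PIP genes, called members of each further list (at most 4) or the most abundant where none was called, and the 3 genes nearest to the most abundant member. QSK1 was dropped from the trafficking list because the reference does not pair that name with its locus.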

Additional observations from a re-analysis of the deposited data

How the results depend on the processing

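In all 14 alternatives run on the counts, 0 members were called. PIP2A kept a negative log2 fold change, from -1.06 to -0.59 with 1 library left out, and PIP1B from -0.42 to -0.07. PIP3A stayed positive, from 0.14 to 0.35. The count of called genes over all tested was 35, with 6 in DESeq2, 21 with no filter and 19 to 36 with 1 library left out, the 19 without vil1-1 replicate 2. With Col-0 replicates 2 and 3 both left out, a setting added after seeing the data that takes Col-0 replicate 1 to vary like vil1-1, 7 genes were called, PIP2A had -0.52 (edgeR adjusted p = 0.906) and the sum of all 10 members a log2 ratio of -0.23. The log2 ratio of the PIP2 sum was 0.04 and changed sign with 1 library left out (-0.04 to 0.09). A Bonferroni adjustment of the authors' deposited table left 627 of 1784 calls and 1 of 2 members, PIP2A. Same-numbered libraries did not deviate together (correlations of -0.03 to 0.08 over 942 genes). Counting error at this depth could hide a shared deviation, so this check cannot decide whether the numbers pair libraries. With a replicate block 34 genes were called and 0 members. Depth limits the 7 members that did not pass the default filter, which held 72 counts in all.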
